A study of Homo sapiens with 2 samples.

Results

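The 34 genes described here encode subunits of Integrator and of the machinery that cuts, polyadenylates and releases RNA polymerase II transcripts at their 3′ ends. They were taken by name: 14 Integrator subunits, 7 subunits of the cleavage and polyadenylation specificity factor (CPSF, counting its scaffold SYMPK), 3 subunits of cleavage factor I (CFIm), 3 of the cleavage stimulation factor (CSTF), 2 of cleavage factor II (CFIIm), the poly(A) polymerase PAPOLA, the nuclear poly(A) binding protein PABPN1 and 3 termination factors. All 34 were found among the 58884 Ensembl gene IDs of the count files. The series holds RNA-seq read counts from T24/R, an adherent human urinary bladder line that the series title places in work on urothelial carcinoma and chemoresistance. The control group was exposed to the solvent DMSO and the other group to 1600 nM THZ1, each for 6 h, with no other agent or genetic change named. THZ1 is a covalent inhibitor of CDK7, a transcription kinase within TFIIH, with further activity against CDK12 and CDK13.

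Each group had 1 library, so every difference compares 2 libraries, without a replicate check or a p-value. Total counts were 18445831 in DMSO and 18313827 in THZ1, of which the member genes took 0.334% and 0.304%. Among 17 urothelial or epithelial markers, 4 reached 30 counts in DMSO (KRT8, KRT18, FOXA1 and TP63) and 3 in THZ1, with a summed level of 46.4 and 45.6 CPM (counts per gene scaled to a common library size). KRT18 alone held 31.6 and 32.2 CPM of that sum, while KRT8 had 77 and 100 counts, FOXA1 129 and 21, and TP63 61 and 34. UPK1B, UPK3A and KRT20 were at 0 in both libraries, and no leukocyte or endothelial marker exceeded 4 counts. Of 4 fibroblast or mesenchymal markers, VIM had 63269 and 84532 counts in DMSO and THZ1. The others were low, with COL1A1 at 30 and 20, DCN at 9 and 5, and PDGFRB at 1 and 0. Less RNA per cell and fewer cells of a kind cannot be told apart in such bulk libraries.

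A polyadenylated mRNA is made when CPSF reads the hexamer AAUAAA in the nascent transcript and its nuclease cuts downstream of it. CSTF binds the downstream GU-rich element, CFIm binds UGUA elements upstream and influences which of several sites is used, and CFIIm joins the complex before the cut. Poly(A) polymerase then adds the tail, PABPN1 coats it, and the exonuclease XRN2 degrades the RNA left on the polymerase so that transcription ends. Integrator is a separate complex with a related nuclease. It cuts small nuclear RNAs and the short transcripts of polymerases paused near promoters, and it carries a protein phosphatase.

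Most members carry the hexamer that CPSF reads at their own annotated 3′ ends. Within the last 40 bases of the principal GENCODE 29 transcript, AATAAA stood in 26 of the 34 members (76.5%), the variant ATTAAA in 2 and neither in 6, beside 61.7%, 14.6% and 23.7% of 10874 tested protein-coding genes. A match describes these letters in this window and is not a mapped cleavage site, and the counts do not show which site was used. The windows of the members that results below turn on are shown from 4 bases before the hexamer, at most 30 bases long, on GRCh38 and 5′ to 3′, with the hexamer in capitals.
INTS5, chr11:62646850-62646879, minus strand: tctaAATAAAatttgccaacttgagaaaac
CSTF1, chr20:56406338-56406367, plus strand: ctgaAATAAActttatatacaatgataagc
CSTF3, chr11:33084584-33084607, minus strand: aaaaAATAAAaggattcagaaaca
CPSF7, chr11:61402651-61402680, minus strand: aaatAATAAAtggggtgtgagctgttttat
CPSF6, chr12:69274332-69274358, plus strand: tgaaAATAAAacaaacttttgataaga
CPSF4, chr7:99457351-99457371, plus strand: atggATTAAAgcttgtttttt
PAPOLA, chr14:96567087-96567111, plus strand: acacAATAAAaaaaaaacagcacaa
Genes on both sides of the response carry the same hexamer: CSTF1, INTS5 and CPSF7 were lower, PAPOLA was higher, and all have AATAAA. Among the members, 7 of 26 with AATAAA were lower, 1 of 2 with ATTAAA and 0 of 6 with neither, counts too small to set the classes apart. Over all tested protein-coding genes the share that was lower was 21.8% with AATAAA, 23.1% with ATTAAA and 21.7% with neither.

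After 6 h of THZ1, 8 of the 34 genes had a lower level, PAPOLA alone had a higher level, and 25 were not called. A gene was called when its level differed at least 2-fold and its 95% counting interval excluded no difference, on libraries scaled by TMM, a method that sets the bulk of genes to no change. Of all 12457 genes with 30 or more counts in a library, 21.3% were lower and 9.7% higher by the same rule. The 8 of 34 is 23.5%, a share near that background and therefore no result about the members as a set; the difference between the shares was not tested. The median log2 ratio of THZ1 over DMSO was -0.06 for the members and -0.03 for all tested genes. The quartiles of the members were -0.60 and 0.34 and those of all tested genes -0.83 and 0.55.

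The lower genes were INTS5, CSTF1, CLP1, CPSF7, FIP1L1, INTS9, WDR33 and CPSF4, and they come from 5 different complexes. In each of these complexes other subunits were not called. All 34 genes passed the count minimum in the DMSO library alone, where the least abundant, CPSF4, had 165 counts. No member entered through a high value in THZ1, but that leaves the lower calls unchecked. INTS5, with 10 counts in THZ1, passed the minimum only through DMSO, where it was higher. The plot of ratios by complex shows the uneven pattern within complexes.

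**Figure D1:**
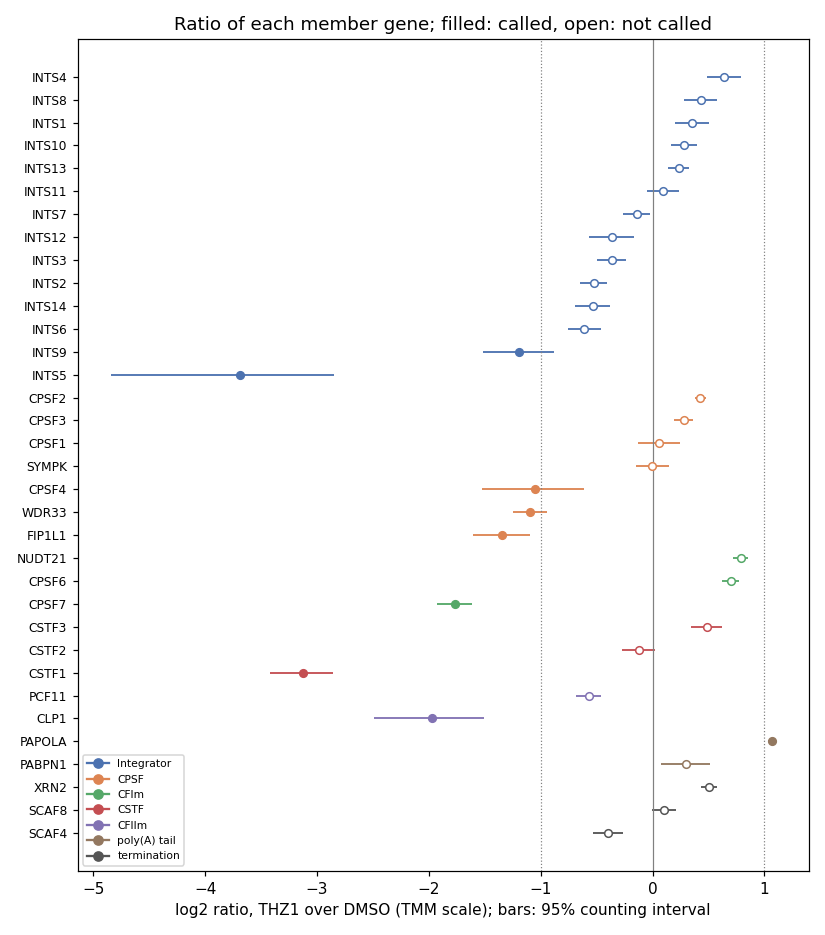
Log2 ratio of THZ1 over DMSO for each of the 34 genes, coloured by complex, with the 95% counting interval as a bar; filled points are called and dotted lines mark a 2-fold difference. The 8 lower genes run from INTS5 at -3.69 to CPSF4 at -1.05, while PAPOLA at 1.07 is the 1 higher gene, a ratio that becomes -0.62 when the libraries are scaled to mitochondrial mRNAs.

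These ratios are relative to the bulk of each library. Scaling to total counts shifts every log2 ratio by -0.51 and scaling to the 13 mitochondrially encoded mRNAs by -1.69. The median of all tested genes then becomes -0.54 or -1.72. The split of called members was 8 lower and 1 higher with TMM. Total counts gave 12 lower and 0 higher, beside 34.2% lower and 2.95% higher among all tested genes. The mitochondrial reference gave 31 lower and 0 higher, beside 80.3% and 0.706%. Higher genes made up 31.3% of all calls with TMM, 7.95% with total counts and 0.872% on the mitochondrial mRNAs. Ratios below 0 numbered 18 of the 34 with TMM, 30 with total counts and 34 with the mitochondrial reference. How much RNA a cell held cannot be read from these counts. The 8 lower genes were lower with each of the 5 other scalings tried.

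Integrator is built from a backbone, a nuclease module, a phosphatase module and smaller accessory modules. Of its 14 subunits 2 were lower (14.3%, beside 21.3% of all tested genes), 12 were not called and the median log2 ratio was -0.25. INTS5, which joins the backbone to the part of the complex that binds the phosphatase, had 195 counts in DMSO and 10 in THZ1, or 8.84 and 0.653 CPM. Its level fell 12.9-fold, a log2 ratio of -3.69 (-4.84 to -2.85), and only 0.57% of tested genes had a lower ratio. INTS5 (ENSG00000185085) lies on the minus strand of chromosome 11 from 62646848 to 62653302 and has a single intron in its principal transcript, the fewest of the 34 genes.

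The nuclease module holds INTS11, the endonuclease, INTS9, its catalytically inactive relative, and INTS4, which holds the pair together. INTS9 had 366 and 111 counts and was 2.28-fold lower at -1.19 (-1.52 to -0.89), an interval that reaches inside 2-fold. INTS11 had 896 and 664 counts with a ratio of 0.09 (-0.05 to 0.24), and INTS4 had 650 and 703 with a ratio of 0.64 (0.48 to 0.79). Per 100 counts of INTS11 there were 40.8 counts of INTS9 in DMSO and 16.7 in THZ1, a log2 change of -1.29 (-1.64 to -0.94). INTS4 has pseudogene copies that can share reads, which leaves its value uncertain.

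The other Integrator subunits stayed within 2-fold on the TMM scale. With total counts INTS2 (-1.04), INTS6 (-1.13) and INTS14 (-1.05) were lower too, which makes 5 of the 14. On that scale 34.2% of all tested genes were lower, so the 5 are no result about Integrator. INTS1, the largest backbone subunit, had a ratio of 0.35, and INTS2 and INTS7, also in the backbone, had -0.53 and -0.14. INTS8, the neighbour of INTS5 in the complex, had 0.43, with 775 and 726 counts. About 20.7% of its exonic length overlaps the opposite-strand gene CCNE2, which had 443 and 48 counts, and without a stated strand setting reads in the shared stretch cannot be assigned. INTS6, which contacts the phosphatase, had 1209 and 550 counts and a ratio of -0.61. INTS3, which also serves in a single-stranded DNA repair complex, had -0.37 and INTS12 had -0.36. Opposite-strand genes overlap 21.7% of the exonic length of INTS12: GSTCD with 518 and 492 counts, and ARHGEF38 with 26 and 13. In the accessory module of INTS10, INTS13 and INTS14, the ratios were 0.28, 0.23 and -0.54.

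CPSF has a part that recognises the signal (CPSF1, CPSF4, FIP1L1 and WDR33) and a part that cuts (CPSF2, CPSF3 and SYMPK). CPSF4, FIP1L1 and WDR33 were lower, and CPSF1 and the genes of the cutting part were not called. This division is textbook knowledge but was applied after the values were seen, so it orders the genes and is no result. When the whole interval had to lie beyond 2-fold, FIP1L1 was the 1 lower gene of CPSF. WDR33 and CPSF4 contact the hexamer. WDR33 had 1468 counts in DMSO and 478 in THZ1, a 2.13-fold lower level at -1.09 (-1.25 to -0.94). CPSF4 had 165 and 55 counts, a ratio of -1.05 (-1.53 to -0.61). The intervals of both reach inside 2-fold, so these calls sit at the edge of the rule, and with 5 counts added in place of 0.5 the ratio of CPSF4 was -0.98 and no longer called.

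FIP1L1, which links CPSF to poly(A) polymerase, had 615 and 168 counts and was 2.54-fold lower (-1.34, -1.60 to -1.10). A pair of other annotated genes together overlap 45.7% of its exonic length: LNX1 on the opposite strand, which had 35 and 23 counts, and AC058822.1 on the same strand, which had 0 in both libraries. For WDR33 the overlap was 25.6%, with SFT2D3, which had 0 counts in both libraries. CPSF1, the large scaffold of the signal-recognition part, had 539 and 390 counts and a ratio of 0.06 (-0.13 to 0.25).

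In the cutting part, the nuclease gene CPSF3 had 2431 and 2051 counts and a ratio of 0.28 (0.19 to 0.37). Its inactive partner CPSF2 had 6848 and 6402 counts and a ratio of 0.43 (0.38 to 0.48). SYMPK, the scaffold that joins CPSF to CSTF, had 934 and 648 counts and a ratio of -0.002 (-0.15 to 0.14). These 3 genes stayed within 2-fold on this scale, although the intervals of CPSF3 and CPSF2 lie above 0. With total counts each ratio is lower by 0.51, which puts all 3 below 0.

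CFIm is a tetramer of a NUDT21 pair and a pair of the larger subunits, CPSF6 or CPSF7, which can substitute for each other. CPSF7 had 2039 counts in DMSO and 415 in THZ1, or 92.5 and 27.1 CPM. It was 3.41-fold lower, with a ratio of -1.77 (-1.93 to -1.62). CPSF6 went from 2778 to 3133 counts with a ratio of 0.70 (0.62 to 0.77), and NUDT21 from 3356 to 4028 with a ratio of 0.79 (0.72 to 0.86), both within 2-fold and both below 0 on the mitochondrial reference. Per 100 counts of CPSF6 there were 73.4 counts of CPSF7 in DMSO and 13.2 in THZ1, a 5.54-fold drop that needs no scaling between libraries. NUDT21 per 100 counts of CPSF6 stood at 121 and 129, and the interval of that change included 0. Scaled to principal transcript length, CPSF7 lay between the others in DMSO (25.3 CPM per kilobase, beside 34.3 for NUDT21 and 19.0 for CPSF6). It lay below both in THZ1 (7.42, beside 59.3 and 30.9). The principal transcript holds 3650 bases of a 6036-base exonic length for CPSF7 and 6616 of 8082 for CPSF6. The order of CPSF7 and CPSF6 in DMSO depends on which length is used. CPSF7 (ENSG00000149532) is on the minus strand of chromosome 11 from 61402641 to 61430031.

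CSTF has 3 kinds of subunit: CSTF2 binds the downstream element, CSTF3 is the scaffold, and CSTF1 contacts the polymerase tail. CSTF1 had 1402 counts in DMSO and 111 in THZ1, or 63.6 and 7.24 CPM, and was 8.74-fold lower (-3.13, -3.43 to -2.85). Only 1.57% of tested genes had a lower ratio. CSTF2 had 920 and 586 counts with a ratio of -0.13 (-0.28 to 0.03), and CSTF3 had 825 and 801 with a ratio of 0.48 (0.34 to 0.62). Per 100 counts of CSTF3 there were 170 counts of CSTF1 in DMSO and 13.9 in THZ1, a 12.3-fold drop. About 14.5% of the exonic length of CSTF3 overlaps the opposite-strand genes TCP11L1 (1108 and 733 counts) and LINC00294 (426 and 284). Without a stated strand setting, reads in the shared stretch cannot be assigned. Per length, the 3 genes were at 14.8, 21.3 and 13.4 CPM per kilobase in DMSO, in the order CSTF1, CSTF2, CSTF3, and at 1.69, 19.5 and 18.7 in THZ1. CSTF1 (ENSG00000101138) lies on the plus strand of chromosome 20 from 56392371 to 56406369.

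CFIIm consists of PCF11, which binds the polymerase tail and also acts in termination, and CLP1, a polynucleotide kinase that also takes part in tRNA splicing. CLP1 had 239 and 42 counts and was 3.92-fold lower, with a ratio of -1.97 (-2.49 to -1.51). PCF11 had 1926 and 900 counts and a ratio of -0.57 (-0.69 to -0.46), within 2-fold, and became a lower gene at -1.09 with total counts. Overlapping genes cover 18.9% of the exonic length of PCF11.

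PAPOLA (ENSG00000090060, chromosome 14 from 96501433 to 96567111, plus strand), the main nuclear poly(A) polymerase, was the most abundant of the 34 per length in both libraries. It had 13939 counts in DMSO and 20279 in THZ1, or 632 and 1324 CPM, and a ratio of 1.07 (1.03 to 1.10). That call rests on the scaling: the ratio was 0.55 with total counts, 0.96 with TMM computed over all genes and -0.62 on the mitochondrial reference. PABPN1 had 367 and 313 counts and a ratio of 0.30 (0.07 to 0.52). A readthrough gene, BCL2L2-PABPN1, covers 16.8% of its exonic length and had 13 counts in each library.

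None of the 3 termination genes was called. XRN2, the exonuclease, had 3214 and 3172 counts and a ratio of 0.51 (0.44 to 0.58). SCAF4 and SCAF8, related proteins that bind the polymerase tail and prevent use of early poly(A) sites, had ratios of -0.40 (-0.53 to -0.26) and 0.10 (-0.004 to 0.21). With total counts XRN2 lies near 0 and both SCAF genes below it, still within 2-fold. TIAM2, on the same strand with 85 and 63 counts, overlaps 13.0% of the exonic length of SCAF8.

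**Figure D2:**
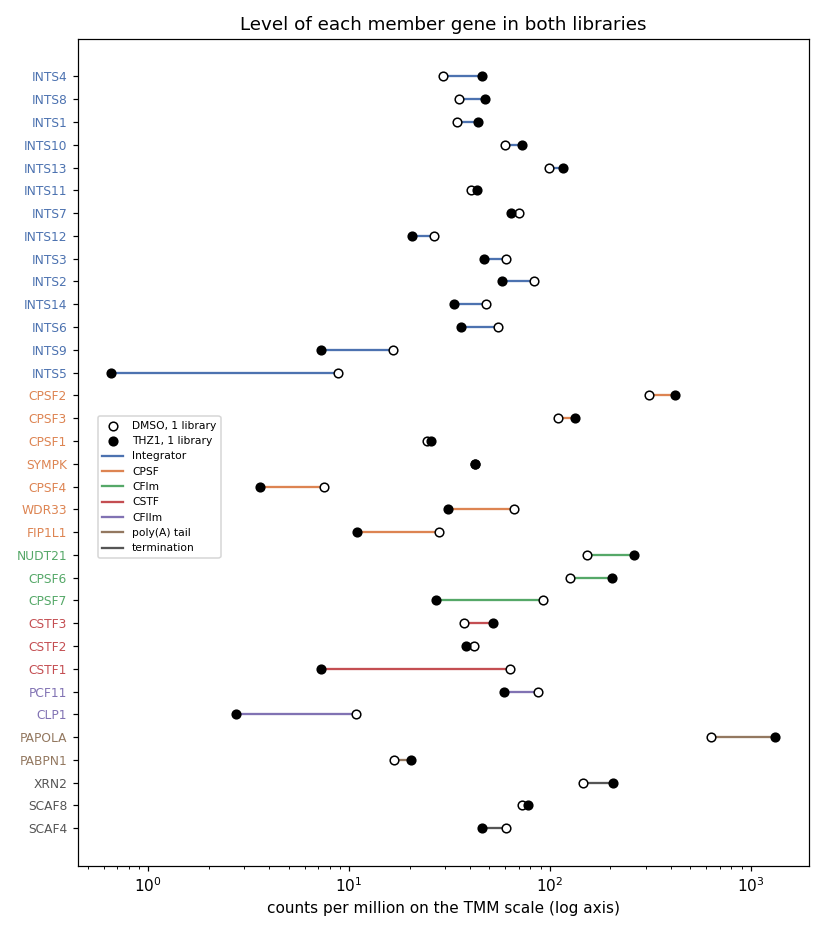
CPM on the TMM scale (log axis) of each of the 34 genes in the DMSO library (open circles) and the THZ1 library (filled circles), with gene names coloured by complex. INTS5 has the lowest THZ1 level at 0.653 and PAPOLA the highest at 1324.

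Ratios between partner genes within a library need no scaling, so 23 pairs were compared that work together or are paralogues. The pairs were chosen with the values known and several share a gene (CPSF1 and CSTF2 are each in 3 of them, and CSTF1, INTS5 and CPSF7 each in 2), so no count of pairs that parted is given. The 95% conditional exact intervals cover counting error only, and such a ratio shows unequal change without saying which partner changed.

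By point value, the widest gap among these pairs was that of INTS5, which fell from 25.2 to 1.38 counts per 100 counts of INTS8. The log2 change was -4.19 (-5.28 to -3.26), an interval that holds the -4.09 of PAPOLG over PAPOLA. INTS5 had 10 counts in THZ1, and 20.7% of the exonic length of INTS8 overlaps CCNE2. Relative to INTS2 the change of INTS5 was -3.23 (-4.32 to -2.31). CSTF1 changed by -3.62 (-3.94 to -3.30) relative to CSTF3 and by -3.01 (-3.34 to -2.69) relative to CSTF2. The change of CPSF7 was -2.56 (-2.73 to -2.39) relative to NUDT21 and -2.47 (-2.64 to -2.30) relative to CPSF6. Narrower gaps separated the lower genes of CFIIm and CPSF from their partners. CLP1 went from 12.4 to 4.67 per 100 counts of PCF11 (-1.41, -1.93 to -0.92). Among the CPSF signal-recognition genes, the changes relative to CPSF1 were -1.41 for FIP1L1, -1.15 for WDR33 and -1.12 for CPSF4. The pairs with the narrowest differences were CPSF2 and CPSF3 (0.15, 0.05 to 0.25), NUDT21 and CPSF6 (0.09, -0.01 to 0.19), and the exonucleases XRN1 and XRN2 (-0.06, -0.16 to 0.04).

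Paralogues also parted. PAPOLG, a poly(A) polymerase related to PAPOLA, had 397 and 34 counts, and went from 2.85 to 0.168 per 100 counts of PAPOLA, a log2 change of -4.09 (-4.64 to -3.58). CSTF2T, an intronless relative of CSTF2, had 634 and 146 counts and a change of -1.47 relative to CSTF2 (-1.78 to -1.16). INTS6L changed by -0.86 relative to INTS6 (-1.18 to -0.55) and SCAF4 by -0.50 relative to SCAF8 (-0.67 to -0.33). In the INTS10, INTS13 and INTS14 module, INTS13 gained 0.77 and INTS10 gained 0.82 on INTS14. Reads of CSTF2T and CSTF2 can be confused where their sequences match, so both values are uncertain.

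**Figure D3:**
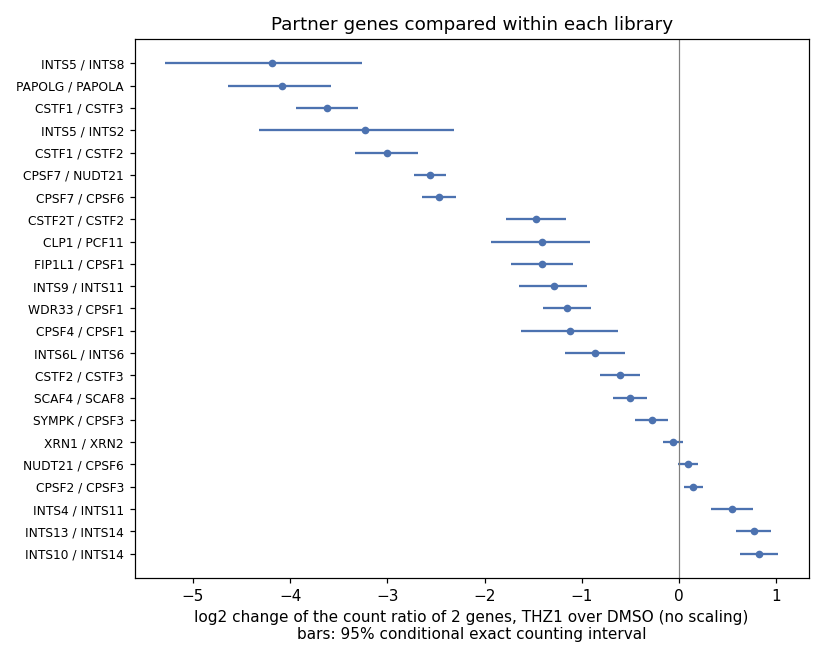
Log2 change from DMSO to THZ1 in the ratio of raw counts of a gene to those of its partner, for 23 pairs, with the 95% conditional exact counting interval. INTS5 over INTS8 at -4.19 and PAPOLG over PAPOLA at -4.09 lie furthest left, and NUDT21 over CPSF6 lies at 0.09.

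The 34 genes differ in structure, and the lower ones had fewer introns. The 8 lower genes had a median of 8 introns and the other 26 a median of 18. Both members with at most 2 introns (INTS5 and CLP1) were lower, as were 3 of 7 with 3 to 9 and 3 of 25 with 10 or more. Among tested protein-coding genes the corresponding shares were 41.1%, 23.3% and 15.5%. Across the 34 genes of these libraries the ratio and the number of introns had a Pearson r of 0.46 and a Spearman rho of 0.36, as a description of genes that share the same libraries. Over 10874 protein-coding genes the values were 0.11 and 0.09.

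Base composition and abundance varied with the ratio too. The Spearman rho between the ratio and the GC content of the transcript was -0.40 over the members and -0.21 over protein-coding genes. With the DMSO level it was 0.39 and 0.17, but that level is also the denominator of the ratio, so these values are not independent. With gene span it was 0.18 and 0.08. With transcript length the sign differed, at 0.19 over the members and -0.17 over protein-coding genes. These properties are related to each other, and their part in the difference between members was not tested.

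**Figure D4:**
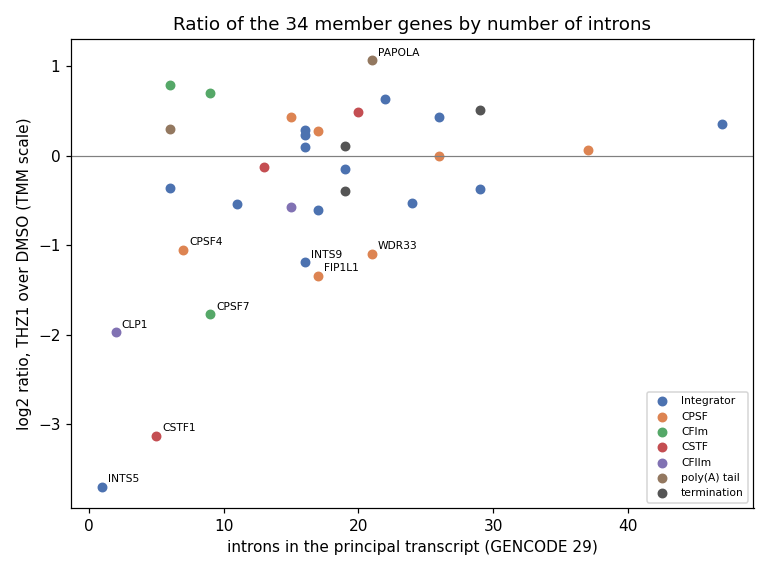
Log2 ratio of THZ1 over DMSO against the number of introns in the principal transcript for the 34 genes, coloured by complex, with the called genes named. INTS5 with 1 intron and CLP1 with 2 are at the left with ratios of -3.69 and -1.97, and PAPOLA with 21 is highest at 1.07 on the TMM scale (-0.62 on the mitochondrial reference).

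Another 63 genes of RNA 3′ end formation were listed in 4 groups, of which 62 passed the count minimum; CPSF4L, with 0 and 3 counts, did not. Of these 21 were lower (33.9%, beside 21.3% of all tested genes), 3 were higher (4.84%, beside 9.7%) and 38 were not called. The median of the 62 was -0.35, beside -0.03 for all tested genes. The 4 groups and the members differed in how many were lower, and this is a description of the lists without a test. The lists were chosen with earlier results of these data known, so the shares describe these lists only.

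Integrator partners had 3 of 14 lower (21.4%, beside 21.3% of all tested genes), 1 higher (7.14%, beside 9.7%) and 10 neither. The lower ones were INTS15, a recently named subunit (167 and 20 counts, -2.51, -3.28 to -1.86), INTS6L (-1.47) and BRAT1, which binds the nuclease pair INTS9 and INTS11 (-1.15). INTS15 passed the count minimum only through DMSO. SEM1, a small protein of the proteasome lid that is also found in other complexes, was higher at 1.73 and stood near 0 on the mitochondrial reference, whose shift is -1.69. The phosphatase subunits PPP2CA and PPP2R1A had ratios of -0.53 and 0.17. Among those not called, the furthest from 0 were ICE1 of the little elongation complex (-0.92) and INIP and NABP2, which join INTS3 in the DNA repair complex (-0.88 and 0.75).

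Other cleavage and polyadenylation factors had 7 of 22 lower (31.8%, beside 21.3% of all tested genes), 1 higher (4.55%, beside 9.7%) and 14 neither. PPP1R10, known as PNUTS, and WDR82 belong to a protein phosphatase complex that slows the polymerase after the poly(A) site. PPP1R10 had 1595 and 115 counts and was 9.60-fold lower (-3.26, -3.55 to -2.99). WDR82 had 3154 and 428 counts (-2.35, -2.51 to -2.21). Their partners TOX4 (-0.11), PPP1CA (0.26), PPP1CB (0.98) and PPP1CC (0.13) were not called. PAPOLG (8.01-fold), TUT1, which acts on U6 RNA (-2.09), RBBP6, an activator of the CPSF nuclease (-1.80), CSTF2T (-1.59) and BARD1, a binding partner of CSTF1 (-1.16), were also lower. TUT1, with 76 and 12 counts, passed the count minimum only through DMSO, and AP002990.1 overlaps 40.4% of its exonic length. PABPC1, the main cytoplasmic poly(A) binding protein, was higher at 1.07, a value below the 1.69 shift of the mitochondrial reference, and has pseudogene copies that leave it uncertain.

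Other termination factors had 7 of 19 lower (36.8%, beside 21.3% of all tested genes), 1 higher (5.26%, beside 9.7%) and 11 neither. ZC3H4, which works with WDR82 to end unproductive transcription, had 916 and 49 counts and was 12.9-fold lower (-3.69, -4.14 to -3.28). CTDP1, a phosphatase of the polymerase tail (-2.29), CDK12 (-1.43), RPRD2 (-1.33), SCAF1 (-1.32), PHF3 (-1.18) and CDK13 (-1.02) were lower. RPRD1A, a binder of the polymerase tail, was higher at 1.39, also under the 1.69 shift, whereas its relative RPRD1B had -0.40.

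Replication-dependent histone mRNAs end in a stem-loop without a poly(A) tail. Factors for their 3′ ends had 4 of 7 lower (57.1%, beside 21.3% of all tested genes) and 0 higher (beside 9.7%). ZNF473, a zinc finger protein of the U7 particle, had 640 and 43 counts (-3.35, -3.85 to -2.92). NPAT, a coactivator at histone loci (-2.89), CASP8AP2, known as FLASH (-2.05), and LSM11, a U7 core protein (-1.80), were also lower. The stem-loop binding protein gene SLBP had -0.76, LSM10 had -0.51 and the exonuclease gene ERI1 0.001.

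**Figure D5:**
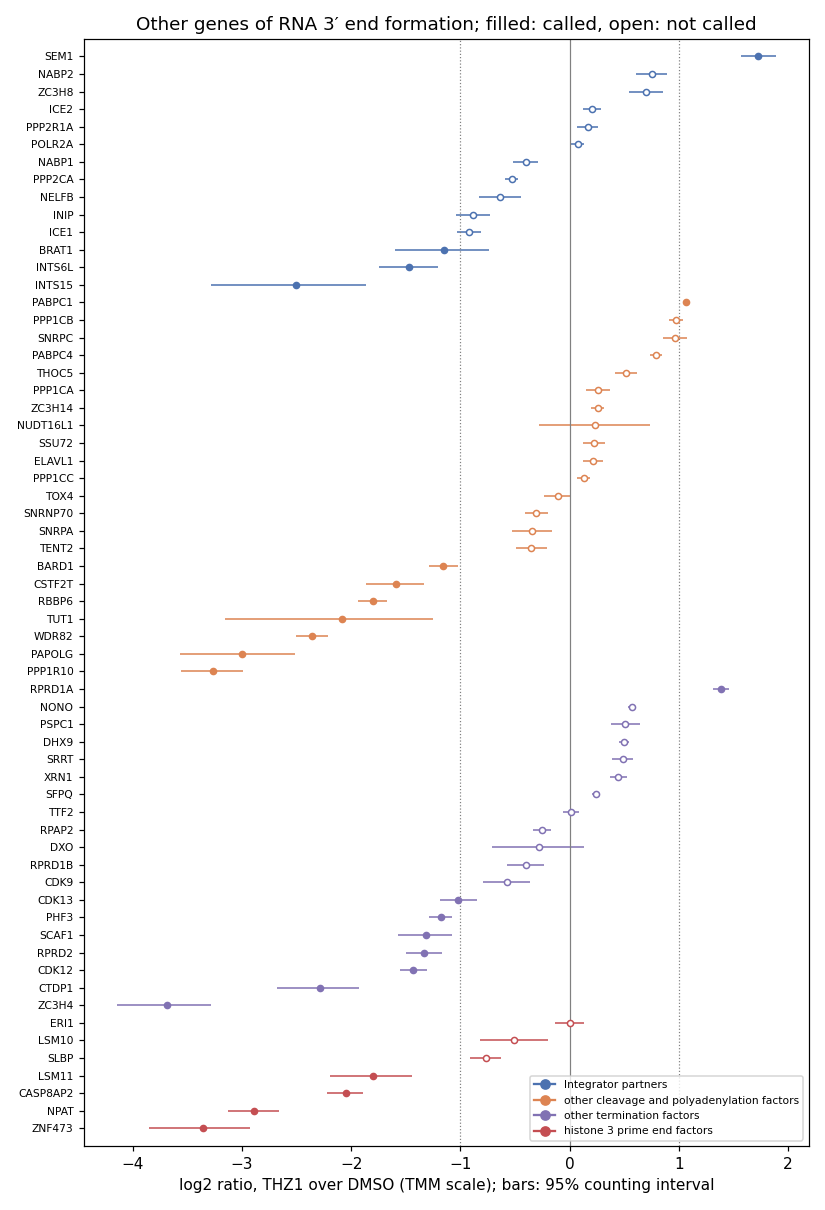
Log2 ratio of THZ1 over DMSO with 95% counting interval for 62 further genes of RNA 3′ end formation, coloured by list; filled points are called and dotted lines mark a 2-fold difference. ZC3H4 at -3.69 is lowest and SEM1 at 1.73 highest; the 3 higher calls are on the TMM scale, and PABPC1 and RPRD1A fall below 0 on the mitochondrial reference.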

How the data were processed

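Per the submitters' processing notes, reads were handled with Trimmomatic 0.38, HISAT2 2.1.0 and featureCounts 1.6.0 on GRCh38. The values are raw read counts per gene, deposited by the authors without normalization, as the whole numbers themselves show. For strandedness, annotation version and multiply mapped reads, the settings were not given in the sources used here. Per the labels' protocols the kit was KAPA mRNA HyperPrep, which captures polyadenylated RNA, so RNA left without a tail is largely missed.

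Of 58884 gene IDs, 58611 were found in GENCODE 29 (GRCh38) and 58472 in a symbol table. Genes with 30 or more counts in a library were tested, and TMM factors from edgeR 4.0.16 (R 4.3.3) on those genes set the effective sizes to 22049153 (DMSO) and 15320940 (THZ1). Log2 ratios add 0.5 to each count. Each 95% interval came from the THZ1 share of a gene's counts (exact Clopper-Pearson), converted to a ratio. Reads carried no molecular identifiers and may be copies, so intervals cover counting error only. Principal transcripts were chosen by APPRIS tag and, among equals, length.

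The calling step was tested on simulated data. All 34 members are named, with those of the 4 further lists that were called and up to 3 per list with ratios furthest from 0 among genes with 100 or more counts, all of which were called. Further genes named without a call were picked after their values were seen. A gene first listed among the further genes is not reported here. The members and lists were chosen with earlier results of these data known. Alternatives were other scalings (total counts, DESeq2 1.42.0 size factors, upper quartile, mitochondrial mRNAs), count minimums of 1 and 100, 5 counts added, a 1.5-fold rule, an interval wholly beyond 2-fold, and thinning to equal totals. TMM over all genes was added after seeing the data. Intervals were computed with scipy 1.17.1 and figures drawn with matplotlib 3.10.9, under Python 3.11.15 with numpy 2.4.6 and pandas 2.3.3.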

Additional observations from a re-analysis of the deposited data

How the results depend on the processing

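The 8 lower members were lower with DESeq2 size factors, the upper quartile, thinning to equal totals and count minimums of 1 and 100, and PAPOLA was higher with each of these. With total counts 12 members were lower (35.3%, beside 34.2% of all tested genes) and 0 higher (beside 2.95%), and the members' median was -0.58. Scaled to mitochondrial mRNAs, 31 members were lower (91.2%, beside 80.3% of all tested genes) and 0 higher (beside 0.706%). The members' median was then -1.75, PAPOLA turned to -0.62, and 54 of the 62 tested further genes were lower. When the whole interval had to lie beyond 2-fold, 5 members were lower (14.7%, beside 15.0% of all tested genes), without CPSF4, INTS9 and WDR33. At 1.5-fold 9 members were lower (26.5%, beside 30.5%) and 4 higher (11.8%, beside 23.4%), with INTS6 joining the lower and NUDT21, CPSF6 and INTS4 the higher genes. With TMM over all genes, added after seeing the data, 8 members were lower (23.5%, beside 23.6%) and 0 higher (beside 7.51%). A count of 0 here is over called members in a design without replicates, and no p-value exists for it. No paired analysis was possible because each group has 1 library, and for the same reason no library could be left out. Depth limits CPSF4, CLP1 and INTS5, with 55, 42 and 10 counts in THZ1.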

Other observations

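Several members share a start region with a coding gene on the other strand. Within 1000 bases between starts, 12 members had such head-to-head neighbours, 13 in all, of which 11 passed the count minimum. Of these 3 were lower and 3 higher, beside 21.3% lower and 9.7% higher among all tested genes. The difference in shares was not tested. CSTF1 starts 34 bases from AURKA, a mitotic kinase gene with 2308 and 401 counts and a ratio of -2.00 (-2.16 to -1.85), and this was the 1 pair in which both genes were lower. INTS7 at -0.14 starts 11 bases from DTL, an adaptor of a replication-coupled ubiquitin ligase, which was lower at -2.03 (-2.19 to -1.88). INTS11 at 0.09 starts 65 bases from CPTP, a lipid transfer protein gene, which was lower at -3.13 (-4.07 to -2.39) with 182 and 14 counts. CPSF2 and CPSF3, at 0.43 and 0.28, start next to NDUFB1, a respiratory chain subunit gene (1.73), and ITGB1BP1, an integrin adaptor gene (1.09), which were higher on the TMM scale. The third higher neighbour, ENSG00000256591, starts 811 bases from CPSF7 and had 10 and 57 counts and a ratio of 2.98 (2.05 to 4.17). CPSF7 at -1.77 also starts 11 bases from SDHAF2, an assembly factor gene of succinate dehydrogenase, with 83 and 31 counts and a ratio of -0.88 (-1.54 to -0.28). INTS9 at -1.19 starts 152 bases from HMBOX1, a homeobox gene, at 0.40 (0.21 to 0.59).

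RNAs that depend on these factors for their ends were only partly measured. Of 1909 annotated small nuclear RNA genes 4 reached 30 counts, and all 4 bear pseudogene names, so products of Integrator cleavage could not be followed. Of 65 replication-dependent histone genes 30 passed the minimum, with 0 lower, 18 higher and a median of 1.15, beside 9.7% higher among all tested genes. Histone genes have near-identical copies, which leaves single values uncertain. The median is below the 1.69 shift of the mitochondrial reference. These mRNAs normally lack the poly(A) tail by which the kit captures RNA, and the part of capture in this value was not tested.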
